A study of Saccharomyces cerevisiae with 6 samples.

Results

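The general stress genes of budding yeast that lie outside glycogen metabolism, trehalose metabolism and the heat shock proteins were followed in cells lacking NPL3. The set held 36 genes, chosen by symbol, and all 36 were found among the 5449 genes measured, each read by 1 probe set. General stress genes are switched on together by Msn2 and Msn4, a pair of zinc finger transcription factors that bind a short stress response element in promoters. When glucose is plentiful, protein kinase A holds both factors in the cytoplasm, so the genes are kept low in growing cells, and they are induced by heat, oxidants, high osmolarity and the approach to stationary phase. Their products detoxify oxidants and aldehydes, feed the pentose phosphate pathway and protect membranes and the cell wall.

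Transcript levels were measured on 6 Affymetrix arrays, each hybridised with biotin-labelled cRNA from the total RNA of 1 culture. The deletion strain, WNPL3B1-2B, carries npl3::KanMX, a replacement of NPL3 by a drug resistance marker, and gave 3 arrays. The product of NPL3 is an RNA-binding protein that joins nascent mRNA and leaves the nucleus with it. The other strain, W303-1A bar1∆, is wild type for NPL3 and gave 3 arrays. Both are MATa haploids of the W303 background with the BAR1 deletion bar1ΔHphMX, and both labels give the same leu2 allele and his3-11,15, then ura3-1 and trp1-1, and can1-100 and ade2-1. Cultures were in mid-log phase in rich glucose medium, named YPAD in the growth protocol and YPD elsewhere in the labels. The labels call the arrays of a group biological replicates and name 1 strain per genotype. With 3 arrays against 3 the number of arrays limits the precision.

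Across genes, which are not independent replicates, Pearson r was 0.996 to 0.998 between arrays of 1 genotype and 0.956 to 0.961 between genotypes. NPL3 itself read 3.80, 4.04 and 4.04 in the deletion, against 10.75, 11.37 and 11.33 in wild type (log2 values). The NPL3 probe set therefore read above the background level of 2.13 in cells that lack the gene. BAR1 was below that level on all 6 arrays. Of the other a-specific genes, which mark MATa cells, MFA1, MFA2, STE2, STE6, AGA2 and ASG7 were all above it. The alpha-specific genes MF(ALPHA)1, MF(ALPHA)2, STE3 and SAG1 also had means above it, from 3.13 for MF(ALPHA)1 to 7.86 for SAG1 in the deletion. LEU2 read 8.56, 8.59 and 8.38 in the deletion, against 2.82, 2.93 and 2.80 in wild type, although both strains are labelled with the same leu2 allele. The 90 genes of chromosome I had a median difference of 0.83, and 0 of the 36 stress genes lie on that chromosome. Control probe sets at the 5′ and 3′ ends of 8 yeast genes differed too: the 5′ value minus the 3′ value was higher in the deletion for all 8, by 0.37 in the median, with no overlap of the arrays. The bacterial and phage hybridisation controls, 9 probe sets averaged on each array, read 7.99 to 9.11 in the deletion, against 9.25 to 9.40 in wild type, again with no overlap. The part of these array and strain differences in the results on stress genes was not tested.

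The stress genes were mostly lower in the deletion. In limma, with Benjamini-Hochberg adjustment over all 5449 genes and a threshold of 0.05, 24 of the 36 fell and 2 rose, and 10 were not called. Of all genes, 28.9% fell and 32.9% rose, so that 61.8% were called. A fall of at least 1.5-fold was reached by 20 of the 36, against 8.66% of all genes, and a fall of at least 2-fold by 14 of the 36, against 3.82% of all genes. The median difference of the 36 was -0.69 on the log2 scale, a level of 62.1% of wild type, and that of all genes was 0.01. The groups did not overlap for 27 of the 36 (68.8% of all genes), 25 of them lower in the deletion (32.5% of all genes) and 2 higher (36.2% of all genes). The values come from whole cultures, so fewer cells with a transcript and less transcript per cell cannot be told apart.

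**Figure D1:**
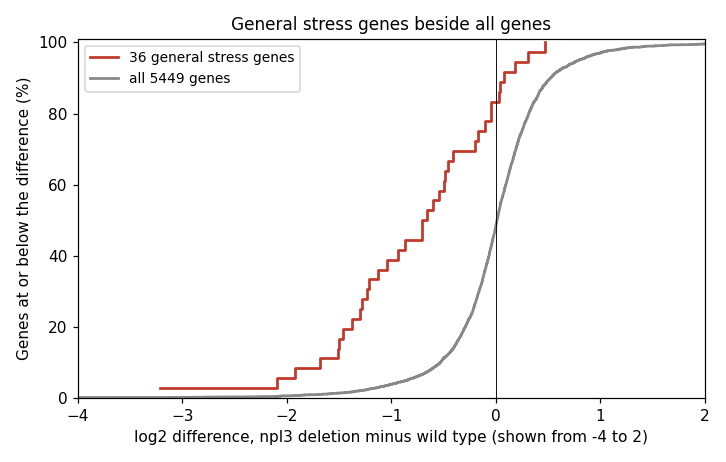
Cumulative share of genes (%) by log2 difference, npl3 deletion minus wild type, for the 36 general stress genes (red) and all 5449 genes (grey). The red curve lies to the left of the grey one, with medians of -0.69 and 0.01.

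Cultures of the same genotype also differed in the stress genes. In wild type, replicate 3 was the highest array for 29 of the 36 genes, against 31.1% of all genes, and its values were a median of 0.28 above the mean of the other wild type arrays, against 0.01 for all genes. Wild type replicate 1 was the lowest array for 25 of the 36 (36.5% of all genes). In the deletion, replicate 1 was the highest array for 26 of the 36 (45.4% of all genes) and replicate 3 the lowest for 21 (36.1% of all genes). The median SD between arrays was 0.08 in the deletion and 0.19 in wild type for the 36 genes, against 0.06 and 0.07 for all genes. Relative to the wild type mean, the medians of the 36 genes were -0.58, -0.73 and -0.74 on the 3 deletion arrays and -0.14, -0.05 and 0.19 on the 3 wild type arrays. All 3 deletion medians thus lay below all 3 wild type medians. Without wild type replicate 3, 24 genes fell, 3 rose and the median was -0.62.

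**Figure D2:**
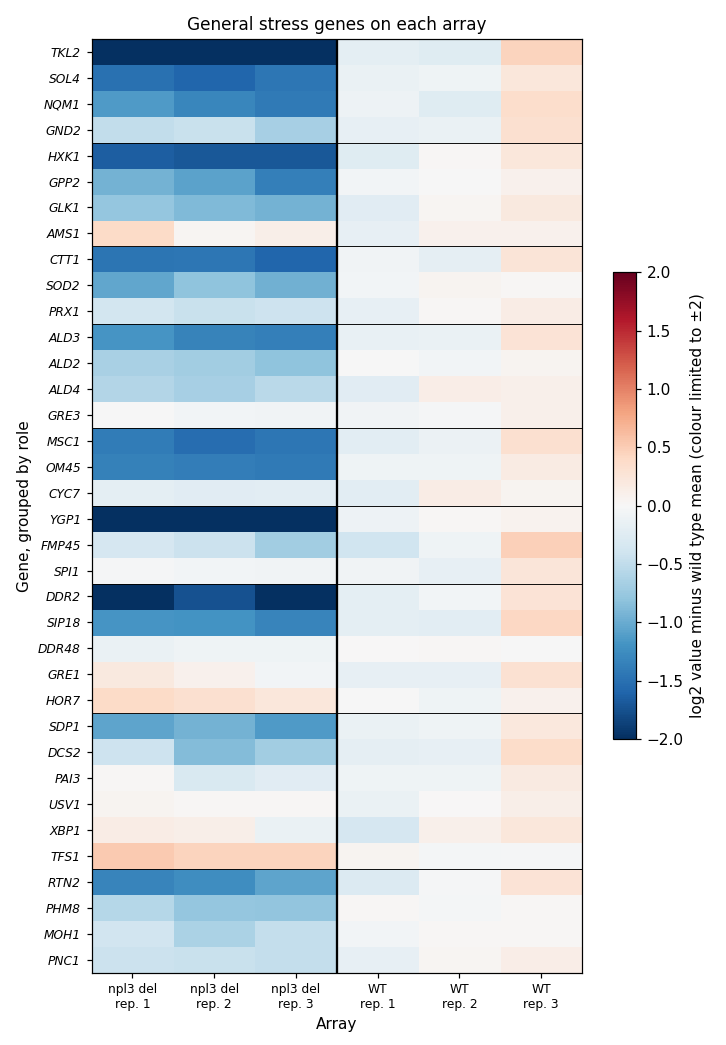
Log2 value of each of the 36 genes on each array minus the gene's wild type mean, with the 3 npl3 deletion arrays left of the 3 wild type (WT) arrays and genes grouped by role. Blue is below and red above the wild type mean. Wild type replicate 3 is the highest wild type array for 29 of the 36 genes.

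All 4 members of the set in the oxidative and non-oxidative pentose phosphate pathway fell, by 0.54 to 3.21, where 28.9% of all genes fell. They encode the stress-induced forms of enzymes that supply NADPH and pentoses. TKL2 (YBR117C, chromosome II), a transketolase, read 4.51, 4.44 and 3.92 in the deletion, against 7.31, 7.26 and 7.94 in wild type. Its lowest wild type array lay 2.75 above its highest deletion array, and TKL2 fell by 3.21 (SE 0.21, limma adjusted p = 1.25e-05), to 10.8% of the wild type level. This was the largest fall of the 36 and rank 7 from the lowest of all 5449 differences. Without wild type replicate 3 the difference was -2.99. The NPL3 probe set read 3.80 to 4.04 in cells without that gene, and how much of the low TKL2 reading was its own transcript was not tested. SOL4, a 6-phosphogluconolactonase, read 4.99, 4.90 and 5.03 in the deletion, against 6.35, 6.39 and 6.70 in wild type. It fell by 1.51 (SE 0.09, adjusted p = 9.53e-06), with 1.32 between the groups. NQM1, a transaldolase, read 6.17, 6.0 and 5.89 in the deletion, against 7.20, 7.05 and 7.65 in wild type, and fell by 1.28 (SE 0.15). GND2, a 6-phosphogluconate dehydrogenase, had the smallest change of the 4. It read 6.45, 6.5 and 6.29 in the deletion, against 6.79, 6.81 and 7.27 in wild type (fell by 0.54, SE 0.13, adjusted p = 0.0083), and its groups were apart by 0.28.

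Of the 4 members in sugar phosphorylation, mannoside breakdown and glycerol production, 3 fell (28.9% of all genes fell) and 1 was not called. HXK1 (YFR053C, chromosome VI), the hexokinase isoform that is repressed by glucose, read 7.77, 7.73 and 7.73 in the deletion, against 9.17, 9.45 and 9.65 in wild type. The deletion arrays were within 0.04 of each other, and HXK1 stood at 31.1% of the wild type level (fell by 1.68, SE 0.11, adjusted p = 1.14e-05). GPP2, a glycerol-3-phosphate phosphatase induced by osmotic stress, read 8.06, 7.93 and 7.63 in the deletion, against 8.94, 8.99 and 9.09 in wild type, and fell by 1.13 (SE 0.11). GLK1, glucokinase, read 8.58, 8.47 and 8.41 in the deletion, against 9.13, 9.40 and 9.56 in wild type, and fell by 0.87 (SE 0.11). AMS1, the vacuolar alpha-mannosidase, overlapped between the groups, at 7.65, 7.31 and 7.39 in the deletion, against 7.11, 7.36 and 7.35 in wild type. Its difference of 0.18 (95% interval -0.07 to 0.42) was not called.

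**Figure D3:**
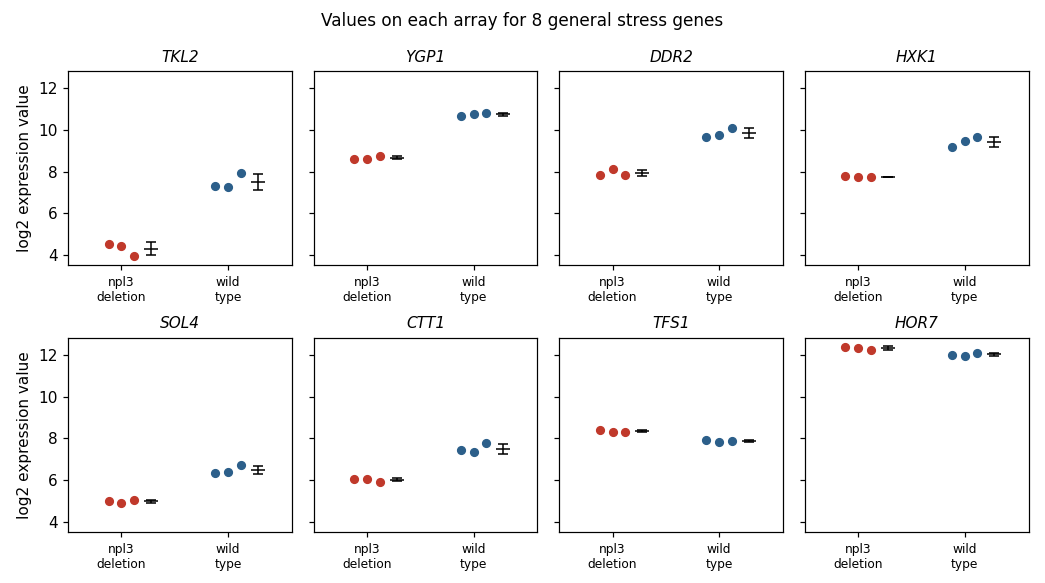
Log2 expression values on each array for 8 of the genes, npl3 deletion (red) left of wild type (blue), 3 arrays each, with the mean and SD in black. The deletion arrays lie below all wild type arrays for TKL2, YGP1, DDR2, HXK1, SOL4 and CTT1, and above them for TFS1 and HOR7.

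All 3 antioxidant genes of the set, CTT1, SOD2 and PRX1, fell, against 28.9% of all genes. CTT1, the cytosolic catalase, read 6.04, 6.06 and 5.92 in the deletion, against 7.43, 7.32 and 7.76 in wild type. This put it at 35.5% of the wild type level, with 1.26 between the groups (fell by 1.5, SE 0.11, adjusted p = 1.92e-05). SOD2, the mitochondrial manganese superoxide dismutase, read 9.0, 9.23 and 9.08 in the deletion, against 9.98, 10.09 and 10.06 in wild type, and fell by 0.94 (SE 0.07). PRX1, the mitochondrial peroxiredoxin, moved least. It read 7.76, 7.69 and 7.72 in the deletion, against 7.97, 8.16 and 8.28 in wild type, and fell by 0.41 (SE 0.08, adjusted p = 0.00259).

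Of the 4 aldehyde and aldose genes of the set, 3 fell (75.0%, against 28.9% of all genes). These were the aldehyde dehydrogenase genes, and GRE3 was not called. ALD2 and ALD3, which encode cytosolic enzymes, sit next to each other on chromosome XIII. ALD3 read 5.05, 4.89 and 4.86 in the deletion, against 6.08, 6.10 and 6.51 in wild type, and fell by 1.30 (SE 0.12). ALD2 read 7.35, 7.31 and 7.19 in the deletion, against 7.99, 7.94 and 8.06 in wild type, and fell by 0.71 (SE 0.06). The 2 genes are near-identical copies, and how far each probe set reads the other's transcript was not tested. ALD4, the mitochondrial enzyme, read 9.19, 9.11 and 9.24 in the deletion, against 9.55, 9.92 and 9.88 in wild type, and fell by 0.60 (SE 0.10). The aldose reductase gene GRE3, by contrast, read 8.44 to 8.50 in the deletion and 8.44 to 8.61 in wild type. The interval of its difference, -0.18 to 0.08, leaves out a fall of the size seen for ALD4.

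Of the 3 members grouped as mitochondrial, OM45 and MSC1 fell, against 28.9% of all genes, and CYC7 was not called. The mitochondrial enzymes SOD2, PRX1 and ALD4, which also fell, were counted in the groups above. OM45, a protein of the outer mitochondrial membrane, read 7.35, 7.31 and 7.29 in the deletion, against 8.62, 8.62 and 8.86 in wild type. The SD was 0.03 in the deletion and 0.14 in wild type, and OM45 fell by 1.38 (SE 0.07, adjusted p = 4.01e-06). MSC1 read 7.56, 7.43 and 7.51 in the deletion, against 8.75, 8.85 and 9.28 in wild type, and fell by 1.46 (SE 0.13). CYC7, the minor isoform of cytochrome c, read 7.08, 7.05 and 7.06 in the deletion, against 7.06, 7.42 and 7.33 in wild type. Wild type replicate 1 lay among the deletion arrays, and without that array CYC7 was called (as it also was with array weights), at -0.31 with adjusted p = 0.00236 (its adjusted p ran from 0.00236 to 0.23 over all alternatives tried).

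Of the 3 cell surface genes, YGP1 alone was called. The share that fell, 33.3%, was near the 28.9% of all genes. YGP1 (YNL160W, chromosome XIV), a secreted glycoprotein, read 8.62, 8.62 and 8.74 in the deletion, against 10.65, 10.77 and 10.82 in wild type. It fell by 2.09 (SE 0.06, adjusted p = 3.48e-07) to 23.5% of the wild type level, and the groups were apart by 1.91. FMP45, a membrane protein of the cell cortex, read 5.69, 5.60 and 5.33 in the deletion, against 5.63, 5.95 and 6.51 in wild type. The wild type arrays spread over a wider range than the groups differed, and the difference of -0.49 (SE 0.21) had adjusted p = 0.0731. It was called with quantile normalization, with array weights and, without wild type replicate 1, at -0.69 (adjusted p = 0.0108, and 0.0108 to 0.206 over all alternatives tried). SPI1, a cell wall protein anchored by a lipid, read 7.67 to 7.72 in the deletion and 7.57 to 7.98 in wild type, with an interval of -0.28 to 0.18.

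The 5 genes of hydrophilins and of the hyperosmolarity and DNA damage responses split, with 2 lower, 1 higher and 2 not called. These are 40.0% lower and 20.0% higher, against 28.9% and 32.9% of all genes. DDR2 (YOL052C-A, chromosome XV), a small protein induced by many stresses, read 7.85, 8.10 and 7.83 in the deletion, against 9.64, 9.78 and 10.11 in wild type. It stood at 26.5% of the wild type level (fell by 1.92, SE 0.13, adjusted p = 1.25e-05). HOR7, its paralogue, went the other way. HOR7 read 12.41, 12.35 and 12.26 in the deletion, against 12.02, 11.95 and 12.12 in wild type, and rose by 0.31 (SE 0.06, adjusted p = 0.00364), with 0.14 between the groups. Of the paralogous hydrophilin genes SIP18 and GRE1, SIP18 alone was called. SIP18 read 4.96, 4.95 and 4.82 in the deletion, against 5.95, 5.93 and 6.55 in wild type, and fell by 1.23 (SE 0.16). GRE1 read 7.49, 7.37 and 7.24 in the deletion, against 7.13, 7.13 and 7.60 in wild type, and was not called. Without wild type replicate 3 GRE1 was called, at 0.24 with adjusted p = 0.0414 (0.0414 to 1 over all alternatives tried). DDR48, a stress-induced protein, read 9.76 to 9.81 in the deletion and 9.88 to 9.91 in wild type. Its groups did not overlap, but the difference was -0.10 (SE 0.04, adjusted p = 0.0646).

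Among the 6 regulators and inhibitors, 2 fell (SDP1 and DCS2), 1 rose (TFS1) and 3 passed no threshold (XBP1, USV1 and PAI3). Falls thus made up 33.3% of this group, close to the 28.9% among all genes. Rises made up 16.7%, where 32.9% of all genes rose. SDP1, a phosphatase of the cell wall integrity MAP kinase, read 4.40, 4.52 and 4.33 in the deletion, against 5.32, 5.38 and 5.67 in wild type, and fell by 1.04 (SE 0.10). DCS2, an inhibitor of the scavenger decapping enzyme, read 7.35, 6.91 and 7.07 in the deletion, against 7.59, 7.61 and 8.13 in wild type. It fell by 0.66 (SE 0.16, adjusted p = 0.00892), and its spread was wide in both groups. TFS1, an inhibitor of carboxypeptidase Y, had the largest rise of the 36. It read 8.40, 8.32 and 8.32 in the deletion, against 7.93, 7.84 and 7.86 in wild type, and rose by 0.47 (SE 0.05, adjusted p = 0.00013). The transcription factor genes XBP1, a repressor, and USV1, a zinc finger protein, had differences of 0.04 (-0.30 to 0.38) and 0.03 (-0.12 to 0.19). XBP1 read 6.08, 6.04 and 5.79 in the deletion, against 5.60, 6.03 and 6.16 in wild type, so that the groups overlapped widely. PAI3, an inhibitor of the vacuolar proteinase A, read 4.57, 4.23 and 4.32 in the deletion, against 4.46, 4.45 and 4.72 in wild type, with a difference of -0.17 (-0.42 to 0.08).

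The 4 remaining members all fell, against 28.9% of all genes. RTN2, a reticulon-like protein of the endoplasmic reticulum, read 5.36, 5.43 and 5.62 in the deletion, against 6.41, 6.66 and 6.96 in wild type, and fell by 1.21 (SE 0.14). PHM8, a lysophosphatidic acid phosphatase, read 7.35, 7.15 and 7.13 in the deletion, against 7.95, 7.88 and 7.94 in wild type, and fell by 0.71 (SE 0.07). MOH1 read 5.29, 5.04 and 5.2 in the deletion, against 5.62, 5.71 and 5.71 in wild type, and fell by 0.50 (SE 0.07). PNC1, the nicotinamidase that feeds NAD salvage, read 9.06, 9.04 and 9.01 in the deletion, against 9.32, 9.53 and 9.63 in wild type, and fell by 0.46 (SE 0.08, adjusted p = 0.00177).

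**Figure D4:**
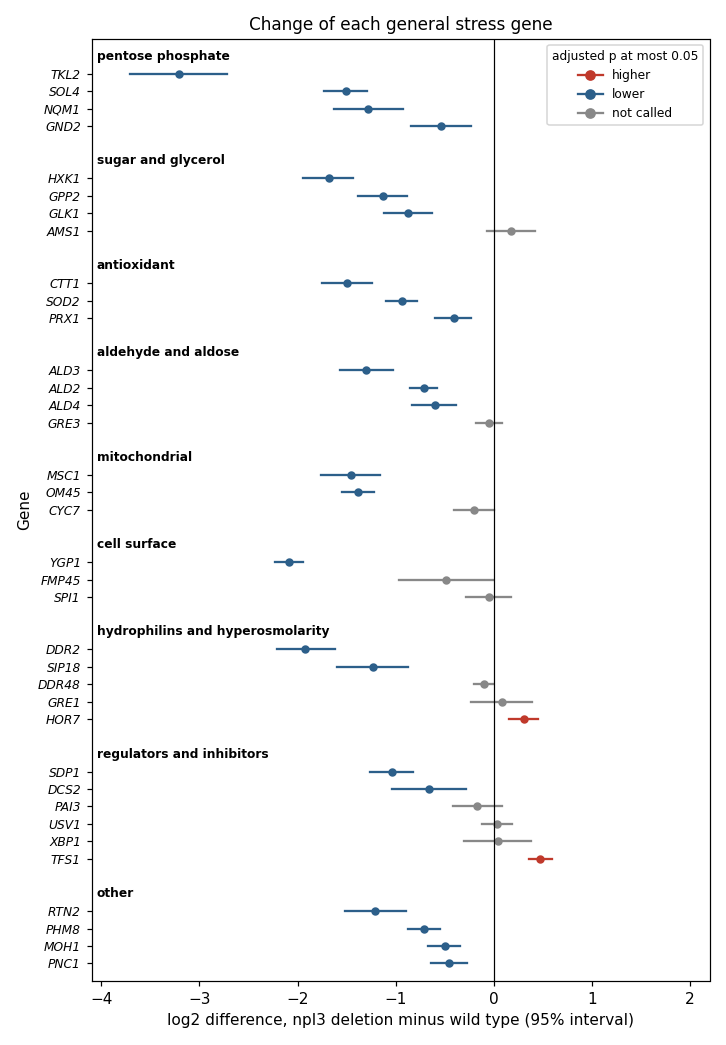
Log2 difference of each of the 36 genes, npl3 deletion minus wild type, with its 95% interval from limma, grouped by role. Blue genes were lower and red genes higher at an adjusted p of at most 0.05, and grey genes were not called. The 24 blue genes span -3.21 to -0.41 and the 2 red genes are TFS1 and HOR7.

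Several members lie close together on chromosome XIII, in the order ALD3, ALD2, EAR1, HOT1, DDR48, PAI3 and SIP18 in the R64 gene table. The 5 members of this run did not share a change: ALD3, ALD2 and SIP18 fell, and DDR48 and PAI3 were not called. HOT1, a transcription factor of the osmotic response, rose by 0.22 (SE 0.07, adjusted p = 0.0237) between them, and EAR1 fell by 0.32 (SE 0.05, adjusted p = 0.00111).

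Many of the stress genes have a relative of the same or a like function, which allows a comparison between related genes. In 19 pairs of related genes, the first gene being a member, 11 had a first gene that fell and a second that did not, and 6 had both lower. Of the members 66.7% fell, of the 16 relatives outside the set 37.5%, and of all genes 28.9%. The pair counts thus carry over the falls of the members and are no separate result. In 3 pairs the second gene, ALD3, HOR7 or GRE1, is itself a member of the stress set. TKL1, the main transketolase, read 12.12, 12.12 and 12.08 in the deletion, against 12.16, 12.26 and 12.22 in wild type, a difference of -0.11 (adjusted p = 0.0875) where TKL2 changed by -3.21. HXK2, the main hexokinase in glucose, differed by 0.05 (adjusted p = 0.361) where HXK1 changed by -1.68. The main transaldolase gene TAL1 rose by 0.32 (SE 0.05, adjusted p = 0.00098), and the transaldolase gene NQM1 fell by 1.28. Among the catalases, CTA1, the peroxisomal enzyme, read 6.11, 5.98 and 6.07 in the deletion, against 4.99, 5.06 and 5.35 in wild type, and rose by 0.92 (SE 0.09, adjusted p = 0.000112), where CTT1 fell by 1.5.

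Both genes fell in other pairs. SOL4 changed by -1.51 and SOL3 by -0.38. SPS100 fell by 0.66, MSG5 fell by 0.35, EMI2 fell by 0.51 and ALD5 fell by 0.39, where their partners YGP1, SDP1, GLK1 and ALD4 changed by -2.09, -1.04, -0.87 and -0.60. For ALD4 minus ALD5 the arrays overlapped between genotypes, so unequal falls were not shown for that pair. In the remaining pair the second gene fell more, with ALD2 at -0.71 and ALD3 at -1.30. RTN1, GPP1, GND1 and TSA1 had differences of 0.01, -0.13, -0.11 and 0.00, none of them called, beside the falls of RTN2, GPP2, GND2 and PRX1. DCS1 rose by 0.14 (adjusted p = 0.0429) where DCS2 fell. CYC1 fell by 0.23 (adjusted p = 0.00599), close to the -0.20 of CYC7, and RGM1 differed by -0.25 (adjusted p = 0.297) where USV1 differed by 0.03. The value of the first gene minus the second, taken on each array, did not overlap between genotypes in 16 of 19 pairs. The share of 68.8% of all genes without overlap is for single genes, an unlike measure, and none was computed for pairs. The falls of the first genes enter the pair values, which are therefore no separate result. The pair value was lower in the deletion in 15 of the 16 and higher in 1, ALD2 minus ALD3, by 0.59. For each of these 16 the two-sided exact permutation p was 0.1, the smallest that 3 arrays against 3 can give, so that no pair can pass 0.05 in this test.

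**Figure D5:**
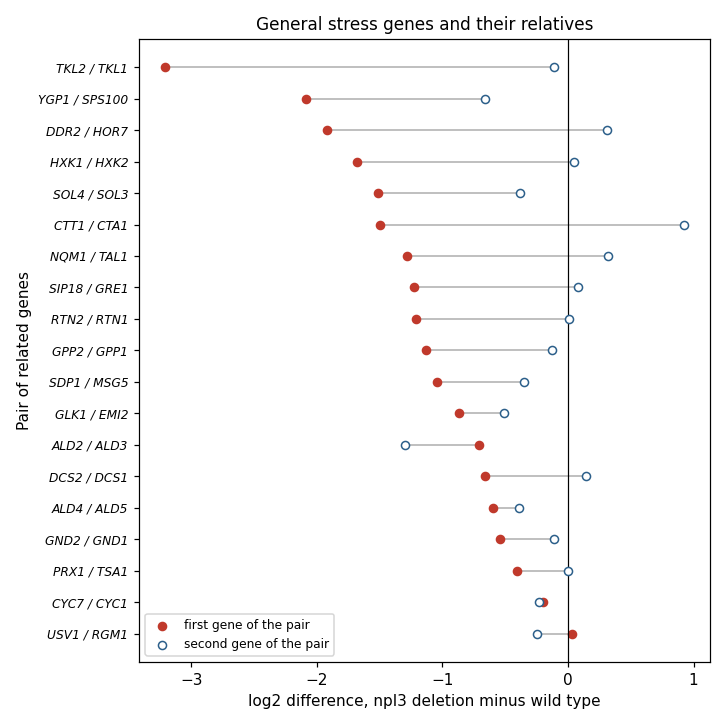
Log2 difference, npl3 deletion minus wild type, for 19 pairs of related genes, with the first gene of each pair as a filled red point and the second as an open blue point. The longest lines belong to TKL2 and TKL1 (-3.21 and -0.11), CTT1 and CTA1 (-1.50 and 0.92) and DDR2 and HOR7 (-1.92 and 0.31).

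The genes that act upstream of the stress genes had smaller median differences. Of 29 genes on the Msn2 and Msn4 side, 10 fell and 6 rose, the other 13 were not called, the median was -0.11 and none of the 10 falls reached 1.5-fold. These are 34.5% lower and 20.7% higher, against 28.9% and 32.9% of all genes, so the share that fell was near that of all genes. Genes that act for and against stress gene expression are mixed in this list, so its counts give no direction for the pathway. MSN2 read 7.75, 7.63 and 7.69 in the deletion, against 8.17, 8.26 and 8.18 in wild type, and fell by 0.51 (SE 0.05, adjusted p = 0.000114). HOG1, the MAP kinase of the osmotic stress pathway, read 9.73, 9.71 and 9.72 in the deletion, against 10.25, 10.19 and 10.22 in wild type, and fell by 0.50 (SE 0.04). Its kinase gene PBS2 fell by 0.41, and RPH1, a demethylase that binds related promoter sites, fell by 0.38. MSN4, named here after its value was seen, read 7.40, 7.52 and 7.54 in the deletion, against 7.69, 7.85 and 7.92 in wild type, and fell by 0.33 (SE 0.07, adjusted p = 0.00488). In the other direction, RIM15, a kinase that promotes stress gene expression when nutrients run out, read 7.58, 7.66 and 7.47 in the deletion, against 6.66, 6.98 and 6.94 in wild type, and rose by 0.71 (SE 0.09). IGO1, a target of Rim15, rose by 0.39, SSK1 of the osmosensing relay by 0.60 and the adaptor gene STE50 by 0.25.

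On the protein kinase A side, 9 of 17 genes fell and 0 rose, the other 8 were not called and the median was -0.18. The 9 are 52.9% of the list, against 28.9% of all genes that fell and 32.9% that rose. The list mixes genes that act for and against the kinase, and it also holds TOR1 and SCH9. The count therefore gives no direction for the pathway. RGS2, which switches off the G protein of the glucose receptor, read 6.85, 6.73 and 6.49 in the deletion, against 8.11, 7.81 and 8.05 in wild type, and fell by 1.30 (SE 0.11, adjusted p = 4.07e-05). GPR1, the glucose receptor itself, read 8.56, 8.47 and 8.49 in the deletion, against 9.11, 9.10 and 9.14 in wild type, and fell by 0.61 (SE 0.05). The catalytic subunit gene TPK2 fell by 0.34 and the regulatory subunit gene BCY1 fell by 0.31. These are transcript levels, and neither kinase activity nor the location of Msn2 and Msn4 was measured.

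The gene lists nearest to the 36 gave these counts. Of 21 glycogen and trehalose genes, 16 fell and 0 rose, with a median of -0.40. Of 26 heat shock genes, 22 fell and 1 rose, with a median of -0.64. The shares that fell were 76.2% and 84.6%, against 28.9% of all genes, and 32.9% of all genes rose. Differences between these lists and the 36 genes were not tested.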

How the data were processed

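Each deposited value is a log2 expression value of 1 probe set on 1 array. Per the submitters' processing notes RMA and limma were used; how they were set is not given in the sources used here. Array medians of 4.81 to 4.98 fit normalized data, in which a shift of nearly all transcripts cannot be seen. No further normalization was applied.

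The platform annotation gave 1 gene symbol to 7244 of 10928 probe sets, several to 1 and none to 3683. By gene ID, 5498 matched the yeast table (assembly R64), and the brightest probe set by the mean of all 6 arrays stood for each of 5449 genes. An approximate background level, 2.13, was taken from the 1746 unmatched probe sets, as their 95th percentile. All 36 members were above it on every array, and none has a probe set marked as matching several transcripts. The level may be too low as a floor, since NPL3 read 3.80 to 4.04 in cells that lack it. Deletion values of SDP1, PAI3, SIP18, ALD3 and SOL4, among others, were near that reading, at 4.23 to 5.05. How much of them was the genes' own transcript was not tested.

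Differences were fitted with limma 3.58.1 (R 4.3.3; lmFit, eBayes, two-sided tests, no covariates) and adjusted over 5449 genes. Adjusted p-values are from this fit, or from its repeat where an array was left out. The procedure was tested on simulated data. Python 3.11.15 and matplotlib 3.10.9 made the tables and figures. The members, lists and tests were chosen with earlier results of these data known. Named genes are the members, their listed relatives, mating-type markers, the deleted genes and up to 4 of the largest rises and falls of each upstream list. LEU2, MSN4, HOT1, EAR1, TOR1 and SCH9 were named beside this rule. Listed genes with no matched probe set among those used here were not tested, and counts of each list cover the genes tested. The promoter motif count was not run, since no sequences were used here. Arrays were not treated as pairs, since the labels do not say that a replicate number marks a shared day or batch. In a check, same-numbered arrays did not deviate together (r of -0.138, -0.073 and -0.187).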

Additional observations from a re-analysis of the deposited data

How the results depend on the processing

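The fit was repeated under 15 alternatives: a replicate block, 6 fits that each lacked 1 array, quantile normalization, median centring, only genes above background, a trended and robust variance, array weights, the mean of a gene's probe sets, no probe sets marked s or x, and an adjusted p threshold of 0.01. All 26 called members kept their direction and their call in all 15, with a highest adjusted p of 0.034. The number lower ran from 24 to 27, the number lower by at least 1.5-fold from 18 to 22, the number higher from 2 to 3 and the median from -0.76 to -0.62. Leaving out arrays gave 24 to 26 lower, 18 to 22 lower by at least 1.5-fold, 2 to 3 higher and medians of -0.76 to -0.62. With the replicate block, 24 members were lower and 2 higher, and no call changed. The share of all genes called ran from 46.2% to 65.1%.

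Among the 10 members that were not called, 8 values changed sign. With array weights XBP1 was at -0.076, GRE1 at -0.061 and USV1 at -0.021. With arrays left out, XBP1 ran from -0.12 to 0.16, GRE1 from -3e-04 to 0.24, USV1 from -0.030 to 0.094 and SPI1 from -0.14 to 0.067. In 10 cases such a member passed the threshold: PAI3 without npl3 deletion replicate 1, CYC7 and FMP45 without wild type replicate 1, GRE1 without wild type replicate 3, DDR48, FMP45 and PAI3 under quantile normalization, and CYC7, FMP45 and PAI3 with array weights. The cause was not tested. The count of stress response elements in promoters was not run.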
